A study of Ovis aries with 32 samples.

Results

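The genes described here are 81 splicing genes of the sheep genome, out of 28524 rows of a count table. They were chosen by symbol alone: every SRSF, SNRP, LUC7L, HNRNP, SF3A, SF3B, U2AF, SRRM and PRPF gene, the kinases CLK1 to CLK4, ARGLU1 and PNISR. The set holds 20 HNRNP, 13 PRPF, 12 SNRP, 11 SRSF, 9 SF3A or SF3B, 5 SRRM, 4 CLK, 3 U2AF and 2 LUC7L genes (LUC7L and LUC7L3), beside ARGLU1 and PNISR. No row of the count table carried the symbol LUC7L2. A pair of libraries, the subcutaneous library of sheep 48 and the visceral library of sheep 255, received closer attention because their levels of these genes were already known to stand apart, so their values are given as a description with no test.

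The study sequenced the 3′ ends of messenger RNA from 4 fat depots of 8 adult female sheep (Ovis aries), a model of polycystic ovary syndrome in which the fetus is exposed to excess testosterone. Visceral fat was mesenteric fat near the rumen, subcutaneous fat came from the sternal region, perirenal fat from around the kidney and epicardial fat from the surface of the heart muscle. Each of 4 control sheep (98, 131, 132 and 201) and 4 testosterone sheep (48, 185, 233 and 255) gave all 4 depots, which makes 8 groups of 4 libraries. A mother contributed no more than 1 daughter to a treatment group. Mothers of the testosterone sheep received injections 2 times a week between gestation days 30 and 90, each of 100 mg testosterone propionate (1.2 mg/kg) carried in 2 ml of corn oil, and mothers of control sheep were not treated with testosterone. All sheep of both groups were ovariectomized, kept on a maintenance diet and given steroid implants before tissue was taken. These were a 1 cm estradiol implant, then 2 progesterone implants for 14 days, then 4 estradiol implants of 30 mm for 18 h. The exposure was therefore that of the fetus, and the adult animals had no ovaries and the same steroid background.

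Splicing removes introns from new transcripts. The U1 particle marks the start of an intron with the help of LUC7L proteins, the U2AF proteins and the U2 particle (with SF3A and SF3B) mark its end, and PRPF proteins build and drive the later complexes. SNRP genes encode the protein core of the particles, SR proteins (SRSF and SRRM genes) promote the use of exons, HNRNP proteins coat the transcript and often have the opposite effect, and CLK kinases phosphorylate SR proteins. ARGLU1, known from human and mouse cells, binds the Mediator complex and nuclear receptors and also influences splicing, and PNISR is an SR-related protein that binds pinin. Many SR protein genes of human and mouse cells limit their own messenger RNA through splicing of their own transcripts.

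Total counts ran from 784135 to 8267824 per library. Levels are given as CPM, counts scaled to a common library size with TMM factors, and no length correction was made because 3′ end reads do not accumulate with transcript length. Of the 81 genes, 72 had a mean of at least 10 CPM over the 32 libraries. The other 9 were PRPF31, SNRPA, SNRPN, SRRM3, SRRM4, SRRM5, SRSF2, SRSF12 and U2AF1L4. SNRPN had 0 counts in 168344791, which allows up to 0.0178 CPM for counting error alone. All 11 adipocyte markers were detected, and their summed level lay between 10536.5 and 55854 CPM. Cardiac muscle markers, of which 10 of 12 were measured, summed to 20917, 12134, 3091 and 2370 CPM in the epicardial libraries of sheep 48, 98, 131 and 233, to between 5.46 and 326 CPM in the other 4 epicardial libraries, and to at most 32.2 CPM outside epicardial fat. In bulk tissue, fewer cells of a type and less RNA per cell cannot be told apart.

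Splicing genes took up 7.11% of all counts in the subcutaneous library of sheep 48 (exact binomial 95% interval 7.06 to 7.17) and 5.97% in the visceral library of sheep 255 (5.94 to 6.0). The summed level of the 81 genes was 75342 and 67864 CPM in these 2 libraries. In the other 30 libraries the sum lay between 13533 and 30821 CPM, with its upper end in epicardial fat of testosterone sheep. These 2 libraries were also among the 4 with the fewest counts, 784135 and 2609183.

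ARGLU1 contributed more than any other member to this rise. In subcutaneous fat its level was 1456, 1532, 863 and 1385 CPM in control sheep 98, 131, 132 and 201, and 26398, 2344, 1457 and 2134 CPM in testosterone sheep 48, 185, 233 and 255. In visceral fat, in the same order of sheep, it was 1397, 439, 388 and 679 CPM in controls and 1791, 597, 977 and 19736 CPM after testosterone. Each of the 2 libraries lay above every other library of the study. In subcutaneous fat sheep 185 and 255 also lay above all controls, and sheep 233 lay within their range. In visceral fat sheep 48 lay above all controls, and sheep 185 and 233 lay within their range. ARGLU1 took up 2.49% of all counts in the first library (exact binomial 95% interval 2.46 to 2.53) and 1.74% in the second (1.72 to 1.75).

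ARGLU1 was lower and more even in perirenal fat, where controls gave 379, 615, 346 and 570 CPM and testosterone sheep 793, 420, 236 and 543 CPM. In epicardial fat the controls gave 1439, 815, 641 and 1131 CPM and the testosterone sheep 5004, 1396, 3970 and 1412 CPM. The 2 high epicardial values belonged to sheep 48 and 233, and the other 2 testosterone libraries lay within the control range. Over the 30 libraries outside the special pair, ARGLU1 ranged from 236 to 5004 CPM. In the RefSeq gene table the ARGLU1 gene overlaps an uncharacterized locus, LOC132657268. The strand setting of the counting is not known from the sources used here, and reads of the 2 could not be separated.

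**Figure D1:**
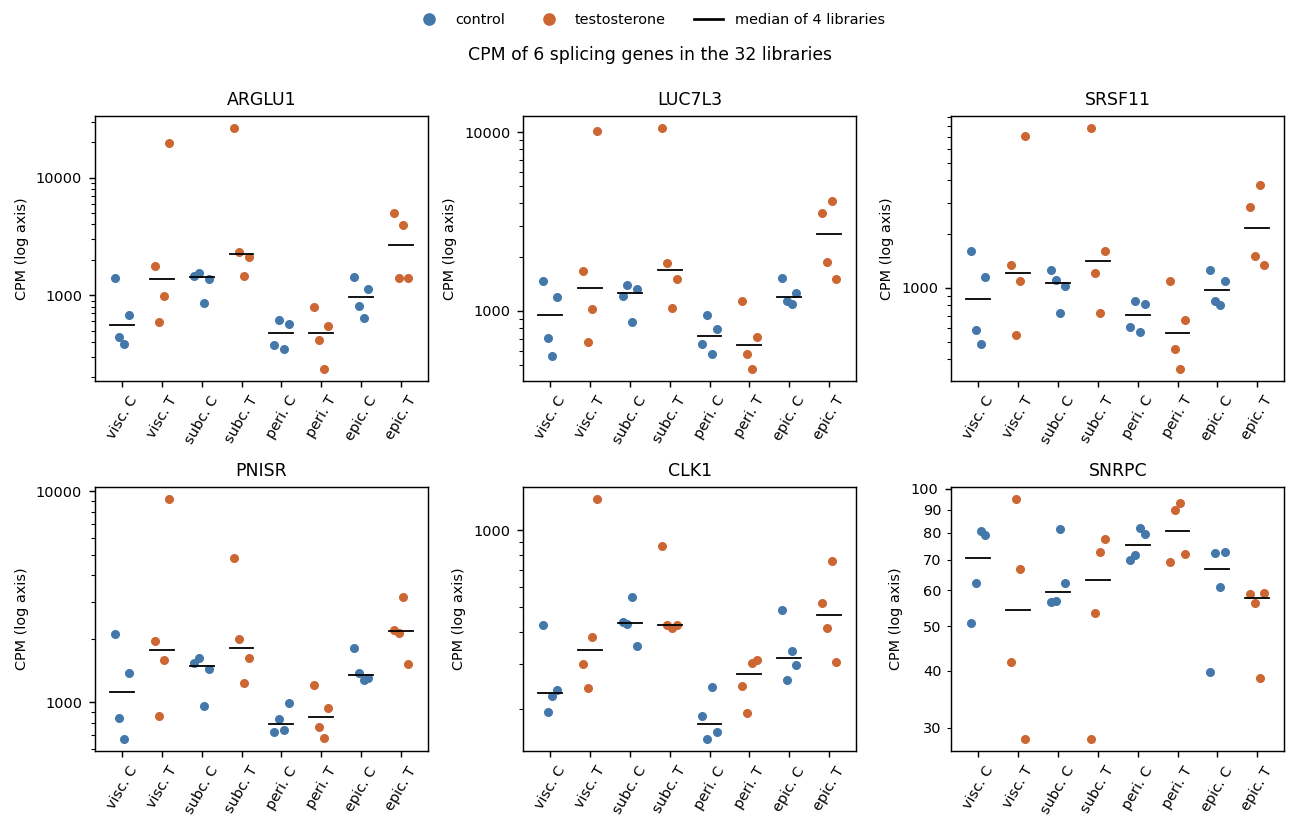
CPM on a log axis of 6 splicing genes in each of the 32 libraries, grouped by depot and treatment (C control, T testosterone; 4 libraries a group, bars are medians). ARGLU1, LUC7L3, SRSF11, PNISR and CLK1 each have 1 visceral and 1 subcutaneous testosterone library above the rest of the group, ARGLU1 at 19736 and 26398 CPM, while SNRPC is lowest in those libraries at 28.3 and 28.4 CPM.

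LUC7L3, a U1-associated factor of 5′ splice site choice, followed ARGLU1. In subcutaneous fat it was at 1207, 1393, 869 and 1325 CPM in controls and at 10530, 1856, 1037 and 1514 CPM in testosterone sheep. In visceral fat it was at 1468, 704, 558 and 1199 CPM in controls and at 1672, 670, 1018 and 10186 CPM after testosterone. Only 1 library of each testosterone group rose above the control range by several fold. LUC7L, its relative, had 461 CPM in the subcutaneous library of sheep 48 and 323 CPM in the visceral library of sheep 255, against 31.3 to 172 CPM in the other 30.

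The SR protein SRSF11 reached 7819 CPM in the subcutaneous library of sheep 48, where the other 3 testosterone libraries had 1209, 728 and 1609 CPM and the controls 1258, 1114, 729 and 1022 CPM. In visceral fat it was at 7074 CPM in sheep 255, at 1337, 548 and 1101 CPM in the other testosterone sheep and at 1604, 579, 488 and 1146 CPM in controls. SRRM2, a scaffold of nuclear speckles, was at 4966 and 3823 CPM in the 2 libraries and at 158 to 2447 CPM in the other 30. SRRM1, a coactivator of splicing, was at 6683 and 2943 CPM there. SRRM4, a neural splicing regulator in mammals that lay below the mean of 10 CPM, had 8 and 14 counts in the 2 libraries (10.8 and 6.1 CPM) and at most 1.63 CPM in the other 30.

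PNISR and CLK1 rose less in sheep 48 than in sheep 255. PNISR was at 4839 CPM in the subcutaneous library of sheep 48, against 2003, 1240 and 1625 CPM in sheep 185, 233 and 255. In visceral fat of sheep 255 it was at 9211 CPM, against 1957, 865 and 1592 CPM in sheep 48, 185 and 233. CLK1, a kinase of SR proteins, was at 866 CPM in the first library, where the other 3 had 428, 414 and 428 CPM, and at 1331 CPM in the second, where the other 3 had 299, 242 and 384 CPM. CLK1 was above all other libraries of its group in both. CLK2 was also above the rest of its group in both, at 58.1 and 98.4 CPM, and the highest of the other 30 libraries had 54.4 CPM. CLK3 was at 17.6 and 6.97 CPM in the 2 libraries and at 12.7 to 29.2 CPM in the others, and CLK4 was at 151 and 150 CPM against 60.2 to 189 CPM, so neither lay above the range of the other 30.

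To set genes side by side, each of the 2 libraries was divided by the mean of the other 3 of its group, and the log2 of this ratio is given with 1 CPM added. Among the 72 members with a mean of at least 10 CPM, the 10 highest in the subcutaneous library of sheep 48 were ARGLU1 (3.74, a 13.3-fold ratio), PRPF40B (3.54), SRRM1 (3.33), SRRM2 (3.14), LUC7L3 (2.84), SRSF11 (2.73), PRPF38B (2.19), LUC7L (2.01), PNISR (1.58) and PRPF3 (1.23). In the visceral library of sheep 255 they were ARGLU1 (4.14, a 17.6-fold ratio), LUC7L3 (3.18), PRPF40B (3.0), SRRM2 (2.94), SRSF11 (2.83), SRRM1 (2.74), PNISR (2.65), PRPF38B (2.45), LUC7L (2.21) and CLK1 (2.11). PRPF40B is a U1-associated protein, PRPF38B an SR-rich relative of a tri-snRNP factor, and PRPF3 a protein of the U4/U6 particle. The lists differ in 1 gene. SRRM4, below that mean, had 2.34 and 2.26. Across the 72 members, Pearson's r between the ratios of the 2 libraries was 0.892, and across all 8770 such genes it was 0.513. These are correlations across genes that share the same 2 libraries, and genes are not independent replicates.

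**Figure D2:**
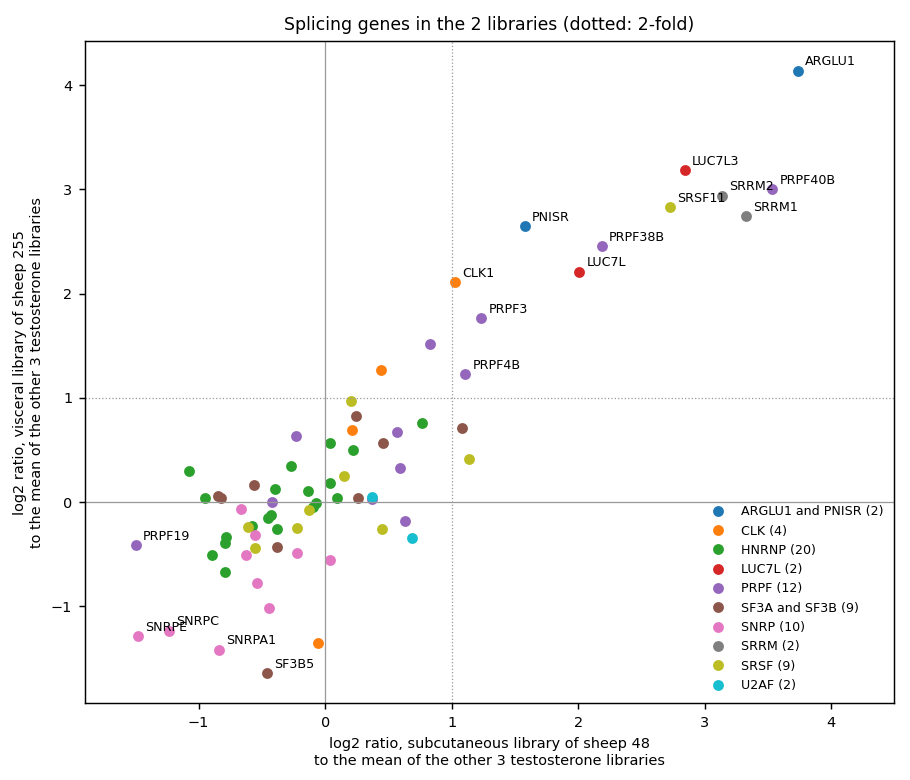
log2 ratio of each of 72 splicing genes in the subcutaneous library of sheep 48 (x axis) and the visceral library of sheep 255 (y axis) to the mean of the other 3 libraries of the group, coloured by gene family with the number of genes. A tail of genes led by ARGLU1 (3.74 and 4.14) runs to the upper right, while SNRPE and SNRPC lie at the lower left.

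Of the 72 members, 14 (19.4%) were more than 2-fold above the other 3 libraries in sheep 48 and 14 (19.4%) in sheep 255, and 12 (16.7%) in both. Over all 8770 genes the shares were 8.55%, 12% and 5.35%. The 12 genes in both were ARGLU1, PNISR, LUC7L, LUC7L3, SRRM1, SRRM2, SRSF11, PRPF3, PRPF4B, PRPF38B, PRPF40B and CLK1. Thus both measured LUC7L genes, both SRRM genes above 10 CPM, ARGLU1 and PNISR were included, and 4 of 12 PRPF genes. None of the 20 HNRNP genes passed 2-fold in either library, and none of the 10 SNRP genes did. Just inside the 2-fold line, at a log2 ratio of 1, were CLK1 in sheep 48 (1.03) and PRPF4B in sheep 255 (1.23). Just outside it were PRPF6 in sheep 48 (0.83) and SRSF4 in sheep 255 (0.97).

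SNRP genes, which encode core particle proteins, tended to be low in the same libraries. SNRPC, a protein of the U1 particle, was at 28.4 CPM in the subcutaneous library of sheep 48 and at 53.6, 72.9 and 77.6 CPM in the other 3 testosterone sheep. In visceral fat it was at 28.3 CPM in sheep 255 and at 41.7, 95.1 and 66.8 CPM in the other 3. No other library of the study had less than 38.6 CPM. Among the same 72 members, the 5 lowest log2 ratios in sheep 48 were those of PRPF19 (-1.50), a ubiquitin ligase of the spliceosome, SNRPE (-1.48), SNRPC (-1.23), HNRNPF (-1.08) and HNRNPL (-0.95). These ratios rested on 8, 10, 21, 94 and 17 counts in that library, in the order given. Below the mean of 10 CPM, SRSF12 (-3.14), U2AF1L4 (-2.09) and SNRPA (-0.98) also lay below HNRNPL there, on 0, 0 and 3 counts. In sheep 255 the 5 lowest ratios of the 72 were those of SF3B5 (-1.64), a small subunit of the U2 particle, SNRPA1 (-1.41), CLK3 (-1.36), SNRPE (-1.29) and SNRPC (-1.23). They rested on 26, 16, 16, 33 and 65 counts. The median ratio of the 10 SNRP genes was -0.59 and -0.67, against -0.15 and -0.13 for all genes. More than 2-fold lower were 2 (20%) and 4 (40%) of them, against 12.6% and 13.8% of all genes. Particle proteins outside the symbol rule differed from this. SNRNP48 had ratios of 2.85 and 2.24, SNRNP70 1.20 and 0.20, and SNRNP27 0.74 and 0.25. SNRNP200 had -0.04 and 0.42, and SNRNP25 -0.33 and 0.08. The HNRNP median was -0.39 and 0.01.

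Splicing genes outside the symbol rule were counted in the same way. Of 126 other pathway genes with a mean of at least 10 CPM, 28 (22.2%) were more than 2-fold higher in sheep 48, 44 (34.9%) in sheep 255 and 24 (19%) in both, beside the 8.55%, 12% and 5.35% of all genes. SREK1, an SR-related regulator, had log2 ratios of 3.19 and 3.18. The 10 genes outside the 81 with the largest smaller-of-both ratio also held AKAP8L (3.83 and 3.93), a nuclear matrix protein, LRRTM1 (3.04 and 3.03), KMT2B (3.26 and 2.84), a histone methyltransferase, DDIT3 (2.81 and 3.0), a stress-induced transcription factor, C5H1orf35 (2.89 and 2.68), DNTTIP1 (2.56 and 2.67) and 3 locus numbers. By its smaller ratio ARGLU1 ranked 2 among 8770 genes.

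Other summed gene lists also set the 2 libraries apart from the rest of their groups, not all in the same direction. The 11 adipocyte markers summed to 16044 CPM in the subcutaneous library of sheep 48, against 29491 to 47237 CPM in the other 3, and to 10536.5 CPM in the visceral library of sheep 255, against 31529 to 33666 CPM. All 5 Schwann cell markers were measured and summed to 235 CPM (531 to 578 in the others) and 140 CPM (646 to 734). The 64 nuclear oxidative phosphorylation genes summed to 5239 CPM (6418 to 9350) and 4258 CPM (7440 to 9264). The 77 cytosolic ribosomal protein genes summed to 58954.5 CPM (62267 to 88530) and 84584 CPM (76309 to 81595). Cardiac muscle markers were near 0, at 6.75 and 1.74 CPM. The part of depth, adipocyte content or RNA quality in the splicing gene levels was not tested.

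**Figure D3:**
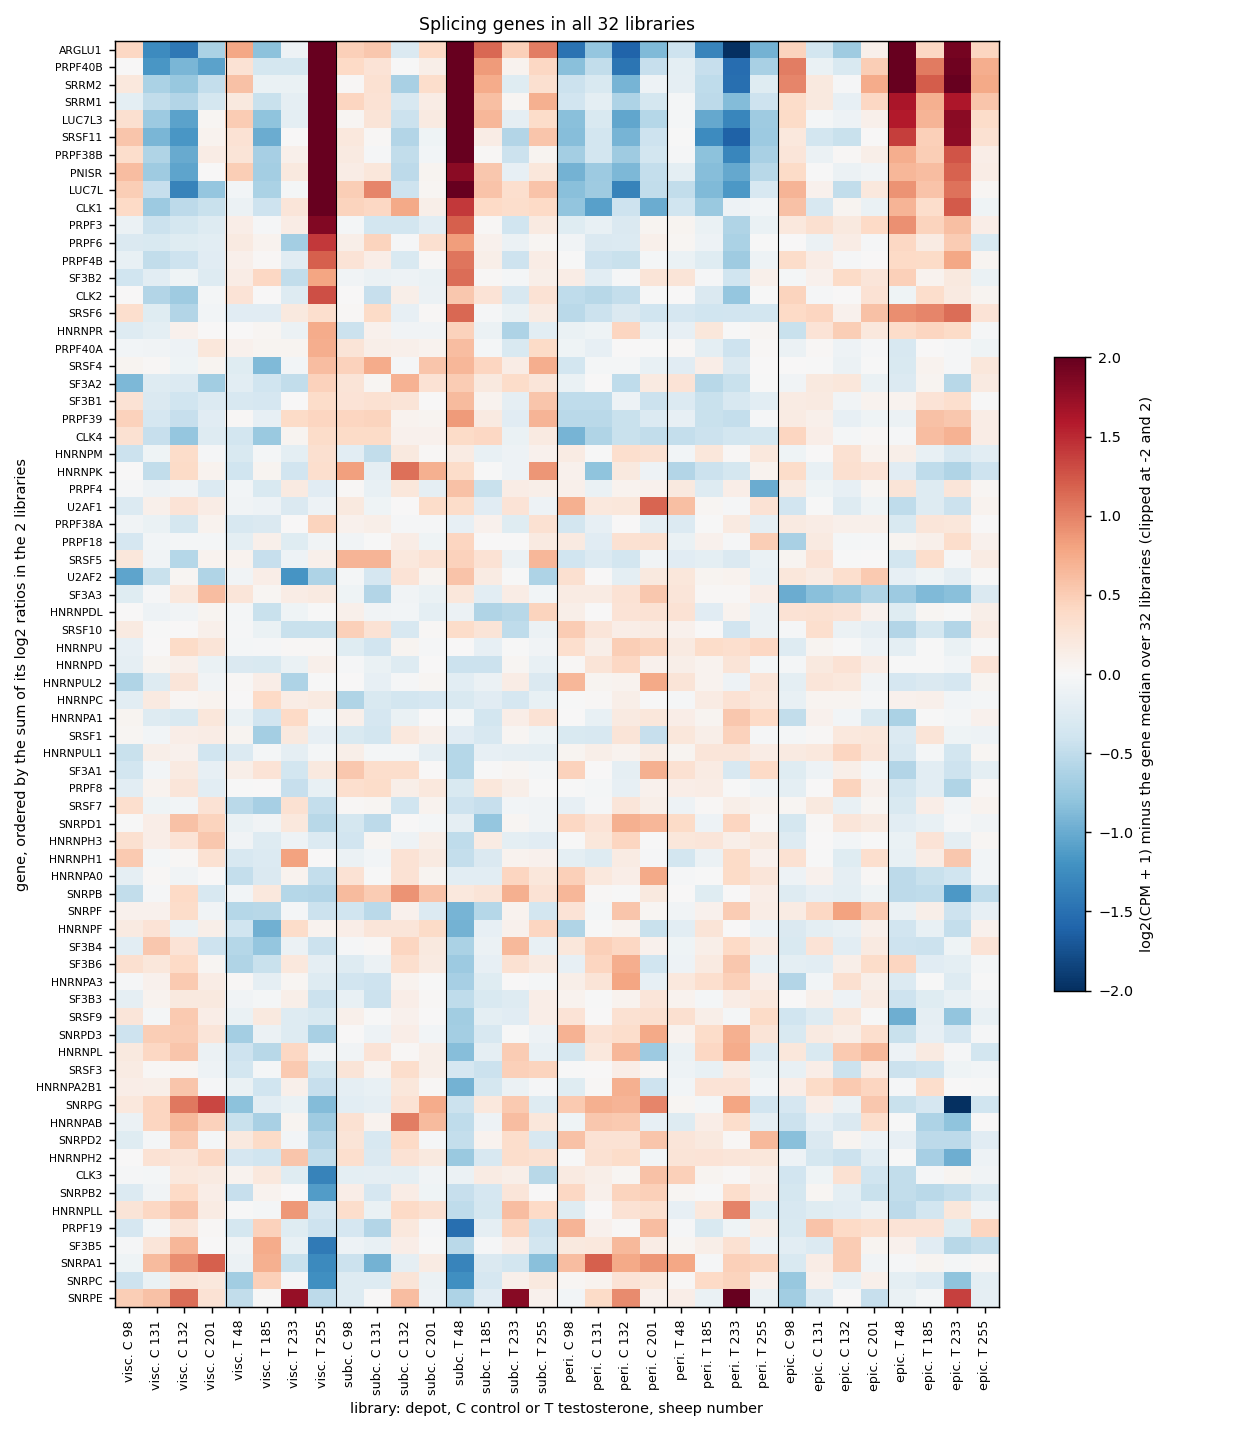
log2(CPM + 1) of 72 splicing genes (rows) in 32 libraries (columns: depot, C control or T testosterone, sheep) minus the median of the gene, clipped at -2 and 2. The upper rows are red in the visceral library of sheep 255, the subcutaneous library of sheep 48 and, more weakly, the epicardial libraries of sheep 48 and 233, and blue in perirenal fat.

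Part of the pattern was present, more weakly, in epicardial fat of testosterone sheep 48 and 233. These epicardial libraries were singled out with their values known, so their ratios are a description with no test. Relative to the mean of sheep 185 and 255, all 12 genes that were high in both of the 2 libraries were higher in sheep 48 (median log2 ratio 0.80) and in sheep 233 (1.02). The median over all genes was -0.05 and -0.04. ARGLU1 had ratios of 1.83 and 1.5. Of all 72 members, 4 in sheep 48 and 7 in sheep 233 were more than 2-fold higher, beside 551 and 272 of 8770 genes. The members' share was slightly below that of all genes in sheep 48 and above it in sheep 233. Of the 10 SNRP genes, 2 were higher in sheep 48 and 2 in sheep 233, beside 4023 and 4060 of 8770 genes. The SNRP median log2 ratio was -0.07 in sheep 48 and -0.20 in sheep 233. The 2 libraries and these 2 epicardial libraries had the 4 lowest totals of the study, 784135, 1753228, 2077594 and 2609183 counts. They also had the 4 highest sums of the 12 genes. The order was sheep 48 subcutaneous (64887 CPM), sheep 255 visceral (57145 CPM), sheep 233 epicardial (20812 CPM) and sheep 48 epicardial (19185 CPM). The 12 genes were chosen for being high in the first 2 of these, so the high sums of those 2 follow from the choice. The cardiac muscle marker sum was 20917 CPM in the epicardial library of sheep 48 and 2370 CPM in that of sheep 233. The part of depth and of muscle in these values was not tested.

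**Figure D4:**
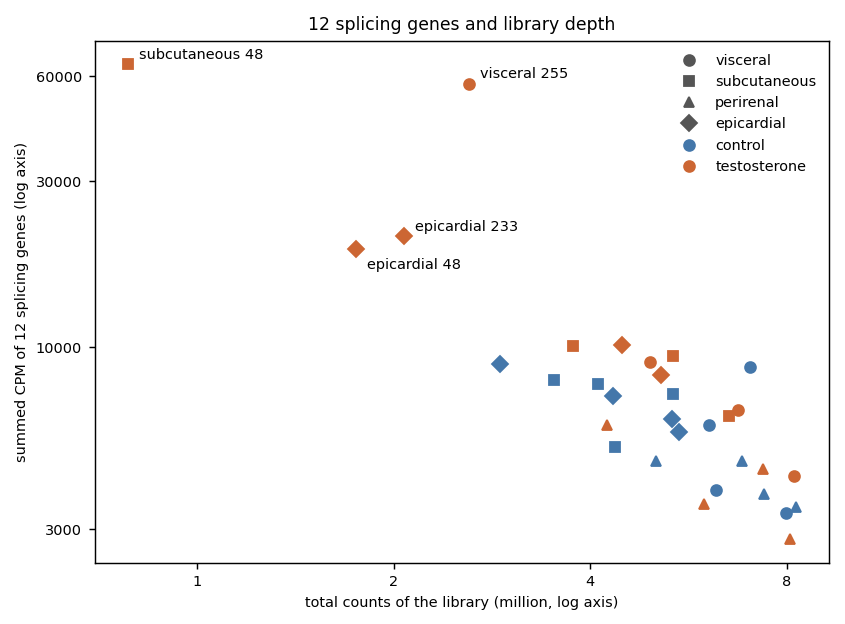
Summed CPM of the 12 splicing genes that were more than 2-fold high in both libraries (y, log axis) against the total counts of the library (x, log axis) for 32 libraries, with shapes for depot and colours for treatment. The 4 libraries with the fewest counts, all of testosterone sheep, have the 4 highest sums, from 19185 to 64887 CPM.

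No splicing gene passed the threshold for an effect of testosterone in any depot. In the edgeR quasi-likelihood test within each depot, 0 of 76 members tested passed a false discovery rate (FDR) of 0.05 in visceral, subcutaneous, perirenal or epicardial fat. The background was 0% of 12860, 12166, 12872 and 12793 genes. At an unadjusted p under 0.05 there were 12 members in visceral fat, against 9.42% of all genes, with 7 higher (5.23% of all genes) and 5 lower (4.19%). There were 6 in subcutaneous fat, against 5.11%, with 6 higher (2.99%) and 0 lower (2.12%). Perirenal fat had 4, against 5.37%, with 1 higher (2.56%) and 3 lower (2.8%). Epicardial fat had 14, against 5.65%, with 9 higher (3.72%) and 5 lower (1.93%). DESeq2 also called 0 members in each depot, against 0.163%, 0.0986%, 0.0699% and 0.086% of all genes. At an unadjusted p under 0.05 it had 13 (17.1%), 2 (2.63%), 4 (5.26%) and 16 (21.1%) members. The shares of all genes were 11.3%, 5.77%, 5.62% and 6.03%.

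The log2 fold change of ARGLU1 was 3.01 ± 1.04 (SE; edgeR adjusted p = 0.521) in visceral fat and 0.61 without sheep 255. In subcutaneous fat it was 2.68 ± 0.91 (edgeR adjusted p = 0.927), and 0.60 without sheep 48. In epicardial fat it was 1.56 ± 0.48 (edgeR adjusted p = 0.760), and 0.49 without sheep 48 and 233. In perirenal fat, where no library stood apart, it was 0.05 ± 0.33. LUC7L3 had 1.80 ± 0.78 in visceral fat (0.17 without sheep 255), 1.68 ± 0.68 in subcutaneous fat (0.30 without sheep 48) and 1.15 ± 0.31 in epicardial fat (0.45 without sheep 48 and 233). PNISR had 1.45 ± 0.68, 0.83 ± 0.40 and 0.65 ± 0.23, and 0.21, 0.23 and 0.35 without the same libraries. CLK1 had 1.06 ± 0.53, 0.29 ± 0.28 and 0.55 ± 0.29, and 0.17, -0.06 and 0.07 without them. Of 76 members tested, those at an unadjusted p under 0.05 numbered 6 (7.89%) in visceral fat without sheep 255, against 6.88% of all genes in the same fit. They numbered 1 (1.32%) in subcutaneous fat without sheep 48, against 5.18%, and 3 (3.95%) in epicardial fat without sheep 48 and 233, against 4.01%.

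Whether the effect of testosterone differed between depots was tested over all 32 libraries in a model that holds each sheep as a block. None of 77 members passed, against 1 of 14225 genes (0.00703%). At an unadjusted p under 0.05 there were 3 members (3.9%) in edgeR, SNRPE, SNRPG and HNRNPH3, against 4.61% of all genes. DESeq2 had 5 (6.49%), against 6.01%, and called 0 members, against 0.0703% of all genes. The edgeR adjusted p of ARGLU1 was 0.994.

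Splicing genes differed between depots in control sheep, where ARGLU1 ran from 346 to 1532 CPM. Each depot was compared with the mean of the other 3 in the 16 control libraries, with the sheep as a block, and 76 members were tested. Perirenal fat had 24 members called (31.6%) against 13.8% of all genes, with 10 higher (7.73% of all genes) and 14 lower (6.04%). Subcutaneous fat had 18 (23.7%) against 23%, with 14 higher (11.4%) and 4 lower (11.6%). Epicardial fat had 18 (23.7%) against 27.8%, with 9 higher (15.3%) and 9 lower (12.4%). Visceral fat had 5 (6.58%) against 5.73%, with 2 higher (3.49%) and 3 lower (2.24%). In perirenal fat the members' share was above that of all genes, and in the other depots it was close to or below it.

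In perirenal fat ARGLU1, PNISR, both LUC7L genes, both SRRM genes tested, 2 of 4 CLK genes and 2 of 10 SRSF genes were lower, and 5 of 11 SNRP genes were higher. CLK1 was at 187, 152, 244 and 162 CPM in perirenal fat of control sheep 98, 131, 132 and 201, against 195 to 550 CPM in their other depots, with a log2 fold change of -0.87 ± 0.16 (adjusted p = 0.00211). ARGLU1 was at -0.95 ± 0.23 (adjusted p = 0.0139), LUC7L at -0.81 ± 0.19 and CLK4 at -0.63 ± 0.15 (adjusted p = 0.0128 for both). The others among the 8 lower genes with the smallest p were HNRNPK (-0.43), the SR protein gene SRSF6 (-0.52), PRPF39 (-0.48) and PNISR (-0.67), and LUC7L3 was also called (-0.60).

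SNRPA1, a U2 particle protein, was at 28.6, 43.2, 31.8 and 34.8 CPM in perirenal fat of control sheep 98, 131, 132 and 201, and at 17.2, 28.9, 35.7 and 43.3 CPM in their visceral fat. It was at 13.4, 9.02, 16 and 20.7 CPM in subcutaneous and at 14.7, 20.4, 26.6 and 17.4 CPM in epicardial fat. Perirenal fat did not overlap subcutaneous or epicardial fat but overlapped visceral fat, and its log2 fold change against the mean of the other 3 depots was 0.76 ± 0.18 (adjusted p = 0.0105). SF3A3, a subunit of the U2 particle, was higher by 0.57 ± 0.11 (adjusted p = 0.00306), U2AF1 by 0.60 ± 0.14, SNRPD1 by 0.49 ± 0.09, SNRPD2 by 0.49 ± 0.14, SNRPB2 by 0.43 ± 0.12, HNRNPU by 0.38 ± 0.10 and HNRNPA0 by 0.39 ± 0.11. All 11 SNRP genes tested had a positive estimate. Of 9 SF3A and SF3B genes tested 2 were called, SF3A3 higher and SF3B1 lower (-0.42). Of the 133 other pathway genes tested, 25 (18.8%) were called, against 13.8% of all genes, 6 higher and 19 lower. Perirenal control libraries had 5048842 to 8267824 counts, against 3519829 to 5354843 in subcutaneous and 2907037 to 5475892 in epicardial controls, and the part of depth was not tested. Without sheep 98, 131, 132 or 201 the perirenal count was 5 (6.58%), 10 (13.2%), 18 (23.7%) and 7 (9.21%) of 76 members, against 4.92%, 6.51%, 11.8% and 6.3% of all genes in the same fits. Without the sheep block it was 10 (13.2%), against 7.88%.

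ARGLU1, CLK1 and LUC7L, which were low in perirenal fat, were high in subcutaneous fat. ARGLU1 was higher by 0.93 ± 0.20 (adjusted p = 0.00485), CLK1 by 0.80 ± 0.14 (adjusted p = 0.000842), LUC7L by 0.70 ± 0.18 and SRSF5 by 0.56 ± 0.12. HNRNPK, an abundant RNA-binding protein, was higher by 0.61 ± 0.10, SRSF4 by 0.50 ± 0.11, SNRPB by 0.67 ± 0.15 and PRPF39 by 0.44 ± 0.13. The 4 lower members were SNRPA1 (-0.90 ± 0.20), SNRPF (-0.55 ± 0.11), SNRPD1 (-0.51 ± 0.10) and HNRNPC (-0.42 ± 0.09). Of the other pathway genes 18 of 133 (13.5%) were called, against 23% of all genes, 11 higher and 7 lower. The 2 contrasts share libraries, since each depot enters the mean that the other is compared with. Without sheep 131 or 132 the subcutaneous count was 11 members (14.5%), against 13.5% and 12.9% of all genes.

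SF3A3 was low in epicardial fat of both sets of animals. It was at 64.2, 72.3, 76.1 and 84.7 CPM in epicardial fat of control sheep 98, 131, 132 and 201, and at 86.2 to 199 CPM in their other 3 depots. In testosterone sheep 48, 185, 233 and 255 it was at 77.6, 70.1, 71.9 and 106 CPM in epicardial fat and at 112 to 153 CPM in the other depots. The ranges did not overlap in either set of animals. The log2 fold change was -0.88 ± 0.12 (adjusted p = 4.65e-05) in controls and -0.78 ± 0.15 (adjusted p = 0.00819) in testosterone sheep. Cardiac muscle markers summed to 12134, 3091, 6.56 and 326 CPM in the 4 control epicardial libraries, in the same order of sheep, and the part of heart muscle in the SF3A3 level was not tested.

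Other members called in epicardial fat of controls included SRRM2 (0.75 ± 0.14, adjusted p = 0.000823), PRPF40B (0.77 ± 0.19), PRPF3 (0.52 ± 0.11), SRSF6 (0.54 ± 0.13), SNRPF (0.47 ± 0.10), CLK2 (0.46 ± 0.13), SRRM1 (0.42 ± 0.10) and PRPF4B (0.30 ± 0.10) among the higher genes. Among the lower were SNRPE (-0.73 ± 0.13, adjusted p = 0.000407), SNRPG (-0.51 ± 0.15), HNRNPAB (-0.49 ± 0.17), HNRNPLL (-0.47 ± 0.14), SNRPD2 (-0.47 ± 0.15), HNRNPH2 (-0.46 ± 0.13) and U2AF1 (-0.44 ± 0.14). Of 133 other pathway genes 38 (28.6%) were called, against 27.8% of all genes, 30 higher and 8 lower. Without sheep 98, 10 members (13.2%) were called, against 19.3% of all genes, and without sheep 201, 11 (14.5%) against 20%. In visceral fat SNRPE (0.63 ± 0.11) and SF3A3 (0.39 ± 0.11) were higher and SF3A2 (-0.68 ± 0.19), U2AF2 (-0.64 ± 0.17) and SRRM1 (-0.39 ± 0.11) lower. Without the sheep block none of these 5 passed, against 2.04% of all genes, and without sheep 131, 132 or 201 the count was 1, 2 and 1 of 76, against 1.51%, 3.42% and 1.98%.

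**Figure D5:**
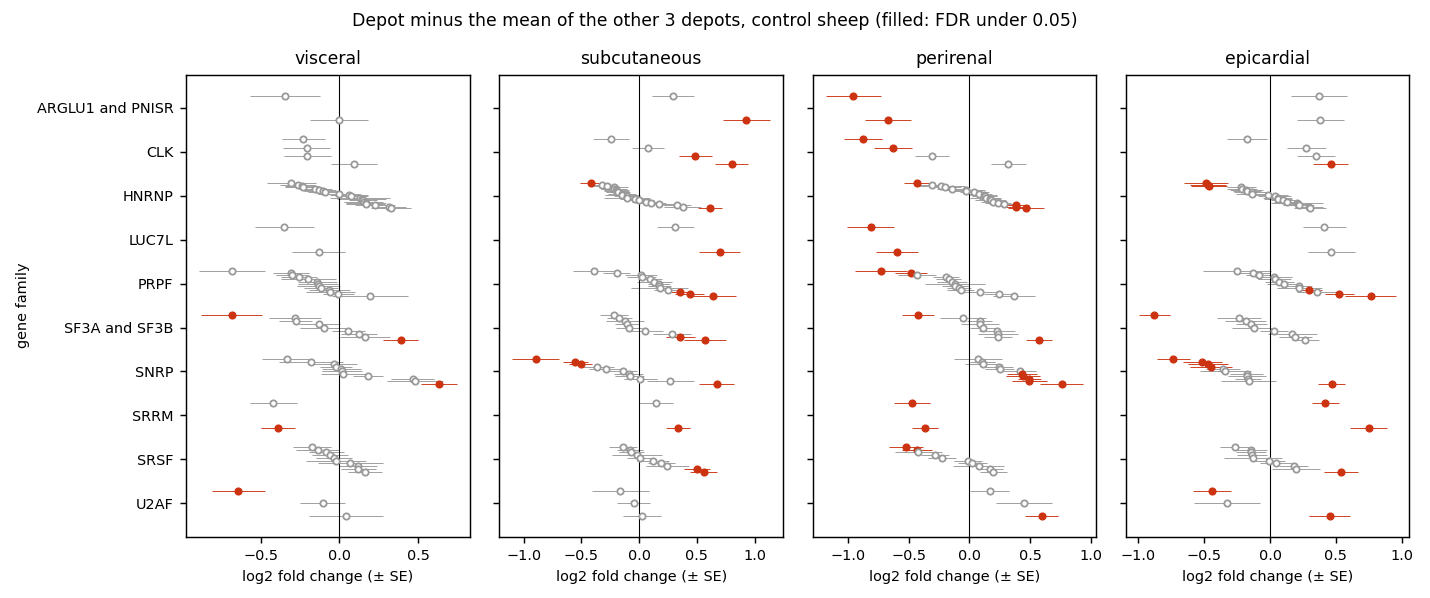
log2 fold change (± SE) of 76 splicing genes in each depot against the mean of the other 3 in 4 control sheep, by gene family, with filled red points at an FDR under 0.05. In perirenal fat ARGLU1, PNISR, LUC7L and SRRM genes lie left of 0 and SNRP genes right of it, and in epicardial fat SF3A3 lies at -0.88.

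The testosterone sheep are separate animals, and the members called in control sheep had the same sign there in 18 of 18 cases for subcutaneous, 24 of 24 for perirenal, 18 of 18 for epicardial and 3 of 5 for visceral fat. Over all genes called in controls the shares were 96.1%, 94.1%, 95.3% and 83.3%. In testosterone sheep themselves 1 member was called in perirenal fat (SNRPD3, 0.68 ± 0.15, adjusted p = 0.0499; background 0.559%), 2 in epicardial fat (SF3A3 and SRSF6, the latter 0.84 ± 0.21, adjusted p = 0.0359; background 4.46%) and none in subcutaneous (2.54%) or visceral fat (0.0895%). The 2 libraries enter these fits. Without them 6 members (7.89%) were called in perirenal fat, against 1.72% of all genes, and 19 (25%) in epicardial fat, against 16.1%. None were called in subcutaneous fat (2.35%) or visceral fat (0.19%).

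In some members the same sheep was the highest or the lowest of 8 in all 4 depots, a pattern noticed in the values and given with no test. SNRPE, a protein of the Sm core, was at 73.4, 77.7, 99.1 and 56.5 CPM in visceral, subcutaneous, perirenal and epicardial fat of sheep 233. No library of the other 7 sheep had more than 47.4 CPM. There were 9 such members of 72 (12.5%), against 3.33% of all 8770 genes. HNRNPA3, HNRNPA2B1, HNRNPM and SNRPF were highest in control sheep 132, SNRPG in control sheep 201, and SNRPE and HNRNPLL in testosterone sheep 233. SNRPD3 was lowest in sheep 48 and LUC7L in sheep 132. Among these, SNRPE, SNRPF, SNRPG, SNRPD3, HNRNPLL and LUC7L were also called for a depot in control sheep.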

How the data were processed

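Counts of reads for each gene, not normalized, were deposited by the authors for QuantSeq 3′ libraries (RNA integrity of at least 7, per the labels' protocols), with whole numbers in all 32 libraries and 0 columns of no sample. The submitters' processing notes name STAR, Trimmomatic 0.36, FastQC 0.11.5, featureCounts 1.6.1, MultiQC 0.9, DESeq2 1.24.0 and R 3.6.3 without their roles. Genome build, annotation and strand setting: not given in the sources used here. Reads of overlapping genes and of near-identical copies are therefore uncertain, which concerns many HNRNP and SNRP genes.

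From the counts, CPM and tests were computed with edgeR 4.0.16 and limma 3.58.1 in R 4.3.3 (TMM factors, filterByExpr with a minimum count of 10, robust quasi-likelihood test, Benjamini-Hochberg over all genes tested, FDR under 0.05). Every adjusted p comes from that test. SE was taken as the absolute log2 fold change over the root of F. The testosterone effect was fitted within the 8 libraries of a depot, and depots within each treatment with the sheep as a block. The pairing comes from the series design, in which each sheep gave 4 depots, and 41 of 48 correlations of deviations within a sheep were over 0.1 (mean 0.234, from -0.145 to 0.505). The 4 sheep of a group are different animals. None of 48 replicate pairs was identical (lowest chi-square per degree of freedom 10.7). DESeq2 1.42.0, its size factors, no filter, no block, other pseudocounts and left-out sheep were the alternatives.

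The members, lists and libraries were chosen with earlier results of these data known. Named genes are ARGLU1, PNISR, the LUC7L and CLK genes, the 10 highest and 5 lowest members of each of the 2 libraries, and up to 8 higher and 8 lower called members per test with the smallest p. Counting intervals and floors (3 counts) describe counting error alone, because without molecular identifiers reads are not independent molecules. Gene overlaps were read from the RefSeq table of assembly ARS-UI_Ramb_v3.0, in which all 81 symbols matched. No sequences are printed.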

Additional observations from a re-analysis of the deposited data

Results flagged for a closer look

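Dixon's criterion, which flags about 1 in 20 groups by chance, was applied to the 4 libraries of each group. Over 576 tests of members in groups, at either end, 59 (10.2%) were flagged. The subcutaneous library of sheep 48 was the highest in 12 of them and the lowest in 1. The visceral library of sheep 255 was the highest in 14, and the rest lay in other libraries. The cases listed here are limited to ARGLU1, PNISR, the LUC7L and CLK genes and the summed members. Among those, the highest library of a group lay far from the others for the range of its group in 14 cases. Of these, 11 lie in the 2 libraries chosen because their levels were known to stand apart, so they describe those libraries and support nothing further. ARGLU1 in the visceral library of sheep 255 (19736 CPM) and in the subcutaneous library of sheep 48 (26398 CPM) stood apart in this way, as did LUC7L3 (10186 and 10530 CPM), LUC7L (323 and 461 CPM), CLK1 (1331 and 866 CPM) and the summed members (67864 and 75342 CPM) in the same 2 libraries. PNISR stood apart in the visceral library of sheep 255 (9211 CPM). Among these listed genes, in libraries that were not singled out, CLK2 stood apart in perirenal fat of control sheep 201 (39.2 CPM). CLK3 did so in subcutaneous fat of control sheep 201 (18.1 CPM) and in perirenal fat of testosterone sheep 48 (26.9 CPM).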

How the results depend on the processing

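Counts of members called are given for each setting that moved them. The share of all genes called in the same fit stands beside them. In visceral fat of control sheep the count of 5 became 8 with DESeq2 (10.5%, against 8.45% of all genes). It became 3 with no low count filter (3.8%, against 3.44%) and 0 without the replicate block (against 2.04%). Leaving out each sheep gave 1 to 6, the 6 without sheep 98 (7.89%, against 3.13%). In perirenal fat of controls the count of 24 became 10 without the replicate block (13.2%, against 7.88%). When each sheep was left out it ran from 5 (6.58%, against 4.92%) to 18 (23.7%, against 11.8%). Leaving out a sheep gave 11 to 15 in subcutaneous and 10 to 14 in epicardial fat of controls, where the main count was 18. The 15 came without sheep 98 (19.7%, against 17.1%) and the 14 without sheep 131 (18.4%, against 20.3%). Without the replicate block those 2 depots had 14 (18.4%, against 17%) and 13 (17.1%, against 22.3%). With DESeq2 the subcutaneous count of controls was 20 (26.3%, against 24.5%), the perirenal 25 (32.9%, against 16.2%) and the epicardial 19 (25%, against 29%). With no low count filter they were 14 (17.7%, against 13.2%), 22 (27.8%, against 7.8%) and 17 (21.5%, against 18.5%).

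In testosterone sheep the perirenal count of 1 became 0 with DESeq2's size factors (against 0.485% of all genes), no low count filter (0.517%) or no replicate block (0.186%). It became 13 with DESeq2 (17.1%, against 6.48%), 6 without the 2 libraries (7.89%, against 1.72%) and 0 to 1 without a sheep. The epicardial count of 2 became 19 without the 2 libraries (25%, against 16.1%). It became 3 with DESeq2 (3.95%, against 8.98%) and with no replicate block (3.95%, against 3.94%). It was 0 to 4 without a sheep, the 4 without sheep 255 (5.26%, against 11.8%). The subcutaneous count of 0 became 3 with DESeq2 (3.95%, against 6.27%). It was 0 to 2 without a sheep, the 2 without sheep 255 (2.63%, against 2.87%). The cause of these changes was not tested. No member passed for the testosterone effect or its interaction with depot under any setting. Without the 2 libraries 8 members (10.4%) had an unadjusted interaction p under 0.05 in edgeR, against 5.62% of all genes.

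When 1 library was left out, the estimated testosterone effect (log2) changed sign for 4 results, none of which passed the test. CLK1 in subcutaneous fat ran from -0.056 to 0.39, and in perirenal fat ARGLU1 ran from -0.26 to 0.28, LUC7L3 from -0.33 to 0.12 and PNISR from -0.045 to 0.23. Members more than 2-fold high numbered 13 to 14 in the library of sheep 48 and 14 to 15 in that of sheep 255 when 1 comparison library was left out. Dropping epicardial testosterone 48 and 233 and leaving each sheep out of the interaction were chosen after seeing the data. SNRPN, SRRM3, SRRM4 and SRRM5 did not pass the filter in any comparison. SNRPN, which overlaps SNURF in the RefSeq table, had 0 counts.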
